A study of Mus musculus with 4 samples.

Results

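The genes described here are 10 genes of BMP and TGF-beta signalling, Smad1 to Smad7, Bmp4, Msx1 and Msx2, among 21631 protein-coding genes of the mouse chromosomes that carry GATA2 summits. They were chosen as a gene family, with the ligand gene Bmp4 and the homeobox target genes Msx1 and Msx2 added, and with the GATA2 peak list in view. For each gene all summits inside its annotated body or within 100 kb of it were taken. Of the 10 genes 6 had at least 1 such summit, and 14.9% of all protein-coding genes did. Because the peak list was known when the genes were chosen, that count is a description and was not tested. With only summits whose q, the adjusted significance given by the peak caller, was at most 0.05, 2 of the 10 genes had one, and 10.2% of all protein-coding genes did.

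GATA2 occupancy was measured by CUT&Tag, in which an antibody on chromatin brings a protein A fusion of Tn5 transposase that cuts and tags the nearby DNA. The cells were germ cells sorted from ovaries of mouse fetuses at E13.5 with the BVSC genotype, which carries a Blimp1-mVenus and a Stella-ECFP reporter, after mating C57BL/6J females to BVSC males and digestion with trypsin. The GATA2 group had 2 libraries, made with a rabbit antibody to GATA2, and the input group had 2 libraries of the same cells labelled as having no antibody. Both groups carry the reporters, and no group lacks GATA2. The single peak list held 995 summits in 945 intervals and was taken to be pooled over both GATA2 libraries, so no value below has a replicate spread. Of the fixed cell markers, 2 of 8 germ cell genes (Dppa3 and Prdm1, the genes of the reporters), 0 of 7 pregranulosa genes, 1 of 5 blood genes (Spi1) and 0 of 5 endothelial genes had a summit within 100 kb, beside the 14.9% of all protein-coding genes. Occupancy does not measure expression, so these counts do not check the purity of the sort.

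SMAD proteins carry signals of the TGF-beta superfamily from receptors at the cell surface to the nucleus. SMAD1 and SMAD5 are phosphorylated by BMP receptors, SMAD2 and SMAD3 by TGF-beta, activin and nodal receptors, and each then enters the nucleus with the common partner SMAD4. SMAD6 and SMAD7 are inhibitory and are induced by the same signals, which closes a feedback loop. BMP4 is a BMP ligand needed for the founding of mouse germ cells, and BMP signals together with retinoic acid later favour the entry of female germ cells into meiosis. MSX1 and MSX2 are homeodomain proteins whose genes respond to BMP.

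When every summit of the list was counted, whatever its q, the SMAD genes split within their signalling classes. Among the BMP-type genes of the 10, Smad5 had a summit and Smad1 had none. Among the TGF-beta-type genes Smad3 had a summit and Smad2 had none. Both inhibitory genes had summits, 1 at Smad6 and 2 around Smad7. The common gene Smad4 had none. Bmp4 and Msx2 had 1 summit each, and Msx1 had none. With a q of at most 0.05 only Smad3 and Smad7 kept a summit, so neither Smad5 nor Smad1 had one. The 6 genes with a summit of any q had 7 summits in 7 intervals. In 5 cases the gene itself was the nearest protein-coding gene, and in 2 cases, both at Smad7, another gene was nearer. Thus 5 of the 10 genes were the nearest to a summit within 100 kb, and 3.82% of all protein-coding genes were. Classes hold 1 or 2 of the 10 genes, so the difference between classes was not tested.

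**Figure D1:**
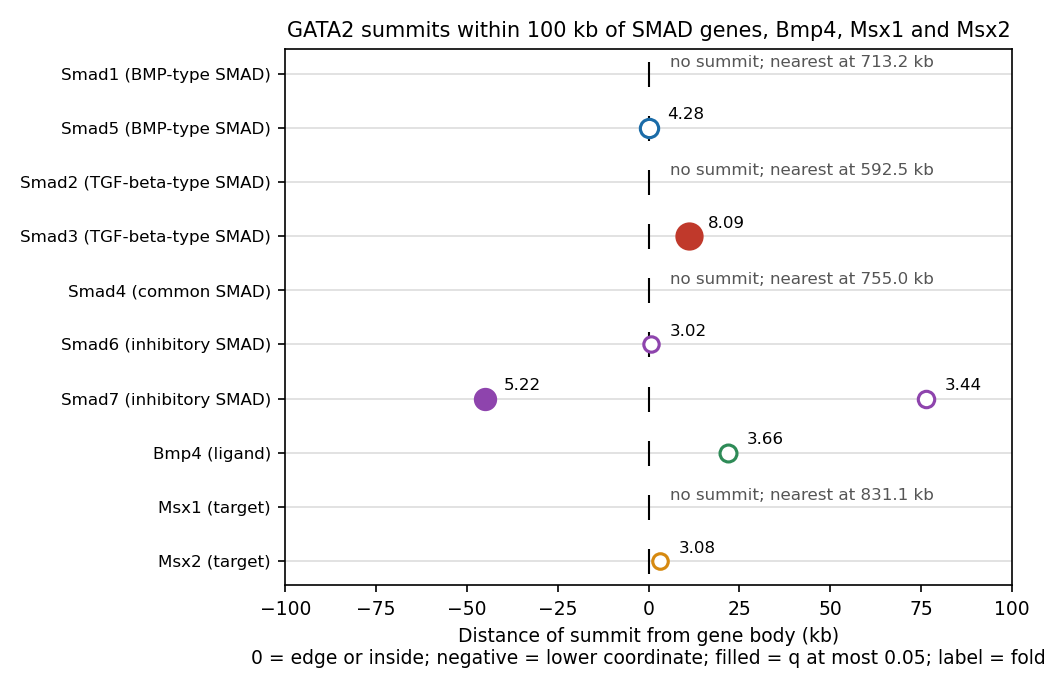
Position of GATA2 summits within 100 kb of the 10 genes, 1 row per gene, as distance in kb from the gene body (horizontal axis, 0 for the edge or inside, negative for lower coordinates). Circle area grows with the deposited fold enrichment, which is printed beside it, and filled circles have a q of at most 0.05. The 2 filled circles are at Smad3 (8.09) and Smad7 (5.22), and 4 genes have no summit.

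Only 2 of the 7 summits reached a q of at most 0.05, against 67.7% of all 995 summits. The other 5 had a q above 0.05, and the threshold by which they entered the list is not given in the sources. All folds, −log10 p and −log10 q are the authors' deposited values for single peaks. The fold enrichment, the caller's ratio of scaled signal to local background with 1 added to both, had a median of 3.66 over the 7 summits and 4.15 over all summits. The intervals had a median width of 246 bp, against 332 bp over all 945 intervals. From the deposited fold and p the number of GATA2 fragments at each summit could be inferred, and it ran from 6 to 24 at these 7 summits, with a median of 9, the same median as over all summits. The fragment intervals given below are exact 95% Poisson intervals and cover counting error only. The control background, in control fragments per position, was inferred in the same way and was 0.0608 across the genome.

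**Figure D2:**
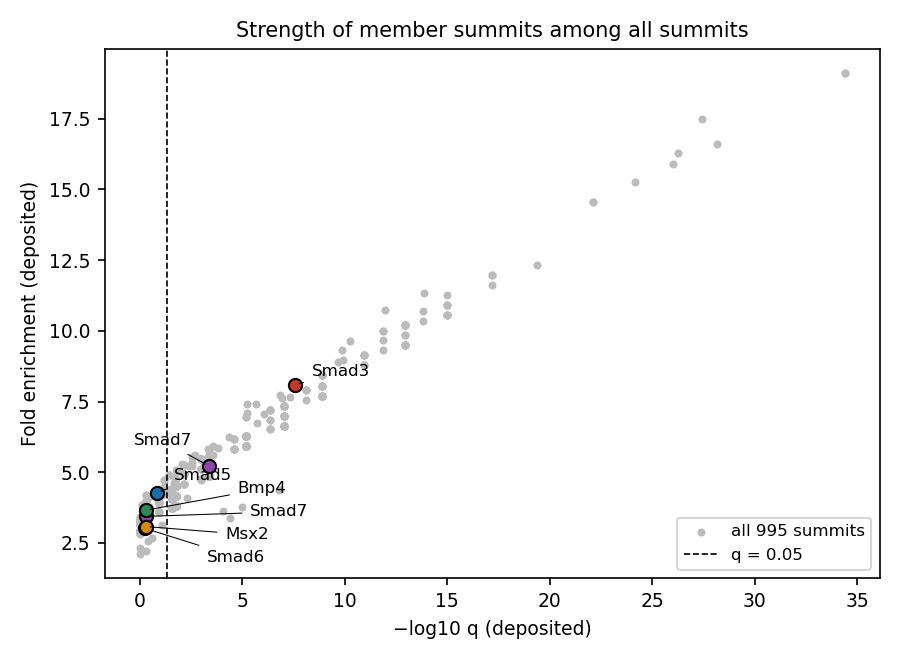
Deposited fold enrichment (vertical axis) against deposited −log10 q (horizontal axis) for all 995 summits in grey, with the 7 summits near the SMAD genes, Bmp4 and Msx2 in colour. The dashed line marks a q of 0.05. Smad3 lies in the upper part of the list, the summit at lower coordinates from Smad7 lies just right of the line, and the other 5 lie left of it.

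Smad3, the TGF-beta-type gene with a summit, had the strongest signal of the group. Its annotated body spans 63646766 to 63757994 on the minus strand of chromosome 9 (GRCm38, as for all positions here). The interval ran from 63768728 to 63769579, with the summit at 63769059, 11065 bp upstream of the annotated start. The fold was 8.09, the −log10 q 7.57, and 24 fragments lay at the summit (15.4 to 35.7). This summit exceeded 93.7% of the list in fold and its width of 852 bp exceeded that of 95.6% of intervals. No other protein-coding gene was closer, but the long noncoding RNA gene Gm35941 was 3695 bp away. The inferred background here was 0.244, higher than across the genome, and its part in the fold was not tested. In the order of −log10 q the summit was number 84 of 995. Just above it, 4 summits tied at a −log10 q of 8.12, nearest to Foxk1, Dock1, H2az1 and the pluripotency gene Esrrb. Just below it came a summit inside Prdm1 (7.31), followed by 28 summits tied at 7.02, none of which is singled out here. These neighbours in rank share only a similar strength.

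Smad2, the other TGF-beta-type gene, spans 76241090 to 76311748 on chromosome 18. Its nearest summit was 592.5 kb away, and 45.9% of protein-coding genes had a closer one. The median distance from a protein-coding gene to the nearest summit was 707.3 kb, so Smad2 was placed near the middle of all genes.

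The BMP-type gene Smad5 spans 56703010 to 56742378 on the plus strand of chromosome 13, and RefSeq gives it 3 start sites in the promoter table. The interval from 56703709 to 56704006 had its summit at 56703928, inside the gene and 260 bp downstream of the start at 56703668. Its fold was 4.28 and its −log10 q 0.84, which is a q of 0.146. The summit held 20 fragments (12.2 to 30.9), a number whose interval overlaps that of Smad3. The control background was 1.0, that is 1 control fragment at the position. The 95% Poisson interval of 1 fragment is 0.0253 to 5.57 and includes the genome-wide level of 0.0608. The 5 summits of the list with 20 fragments and the genome-wide background all had a fold of 8.06 and a −log10 q of 8.91. Fragments and background were inferred from fold and p, so these shared values follow by construction and are no independent comparison. At Smad5 the fold and −log10 q were lower, with 1 inferred control fragment at the same place, and the part of that fragment was not tested.

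The promoter sequences below, from RefSeq on GRCm38.p6, run 5′ to 3′ from 250 bases before to 50 bases after an annotated start. They are shown because Smad5 and Smad6 were the genes whose summit lay within 1 kb of a start. Runs of 6 capitals mark a searched word, and the 9 capitals that end the sequence of the start at 56703668 are the bases shared with the GATA2 interval.
Smad5, start at 56703668, chr13:56703418-56703717, plus strand: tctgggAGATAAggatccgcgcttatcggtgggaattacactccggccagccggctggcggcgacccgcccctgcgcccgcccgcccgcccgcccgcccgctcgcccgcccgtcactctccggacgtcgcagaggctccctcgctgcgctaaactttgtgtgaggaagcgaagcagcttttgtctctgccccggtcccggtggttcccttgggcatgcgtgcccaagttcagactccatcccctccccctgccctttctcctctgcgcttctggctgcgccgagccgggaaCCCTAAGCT
Smad5, start at 56703010, chr13:56702760-56703059, plus strand: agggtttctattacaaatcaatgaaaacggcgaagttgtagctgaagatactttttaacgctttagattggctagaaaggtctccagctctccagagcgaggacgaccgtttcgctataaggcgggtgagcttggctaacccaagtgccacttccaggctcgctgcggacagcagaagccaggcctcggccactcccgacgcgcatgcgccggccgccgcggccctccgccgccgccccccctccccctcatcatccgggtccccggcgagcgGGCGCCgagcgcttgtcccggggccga
Smad6, start at 64022059, chr9:64022010-64022309, minus strand: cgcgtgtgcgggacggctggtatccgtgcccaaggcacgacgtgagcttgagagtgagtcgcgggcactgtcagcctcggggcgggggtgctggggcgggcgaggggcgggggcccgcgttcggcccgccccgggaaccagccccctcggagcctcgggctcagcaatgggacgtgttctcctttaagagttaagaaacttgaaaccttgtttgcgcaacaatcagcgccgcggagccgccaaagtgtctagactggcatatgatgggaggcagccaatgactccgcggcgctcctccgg

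The GATA words searched on both strands were GATA preceded by A or T and followed by A or G, as in AGATAA. The words searched for SMAD proteins, also on both strands, were CAGACA for the general element and, for the BMP branch, GGCGCC, which reads the same on both strands. No word contains another, though 2 words can share bases at their ends. Promoter sequences were matched for 7 of the 10 genes, in 9 windows. A GATA word was found in 1 of the 9, the Smad5 window at 56703668, where AGATAA began 244 bases before the start. Such a word occurred in 25.8% of 21045 windows of protein-coding genes. GGCGCC, a word bound by SMAD proteins of the BMP branch, was found in 2 windows, both of Smad5, whose windows overlap and hold the same copy. It occurred in 15.5% of all windows. CAGACA was in 0 of the 9 windows and in 18.5% of all windows. The summits of Smad5 and Smad6 lay outside these windows, so the letters under them are not shown. A match describes the letters of the window and nothing about binding.

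Smad1, the other BMP-type gene, spans 79338395 to 79399428 on the minus strand of chromosome 8. Its nearest summit was 713.2 kb away, inside Slc10a7, with a fold of 3.44 on 7 fragments. Among protein-coding genes 50.2% had a closer summit.

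The inhibitory genes differed in where their summits lay. Smad6 spans 63953076 to 64022085 on the minus strand of chromosome 9, and its summit at 64022741 (interval 64022682 to 64022908) was 682 bp upstream of the start at 64022059. This was the weakest of the 7, with a fold of 3.02 on 6 fragments (2.2 to 13.1) and a −log10 q of 0.23. Only 2.21% of the list had a lower fold. The inferred background here was 0.0812.

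Smad7 spans 75367365 to 75395935 on chromosome 18 and had a summit on each side. The first, at 75322356 (interval 75322239 to 75322484), lay 45.0 kb toward lower coordinates with a fold of 5.22, a −log10 q of 3.37 and 12 fragments (6.2 to 21.0). Dym, whose product acts in Golgi traffic, was nearer at 35.4 kb, and the long noncoding RNA gene 2010010A06Rik was 25.0 kb away. The second, at 75472329 (interval 75472319 to 75472528), lay 76.4 kb toward higher coordinates and inside Ctif, a translation factor gene. It had a fold of 3.44, a −log10 q of 0.3 and 7 fragments (2.81 to 14.4). Both had the genome-wide control background of 0.0608. The signal with a q under 0.05 on the inhibitory side thus came from a summit that the nearest-gene rule gives to Dym.

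Smad3 and Smad6 are neighbours on chromosome 9. The 195.1 kb between them held 0 other protein-coding genes and 5 genes of other kinds. The Smad3 summit lay in this gap, and was also the nearest summit beyond the 100 kb window of Smad6, at 184.0 kb. The Smad6 summit was likewise the nearest one beyond the window of Smad3, at 264.7 kb. Of the summits within the window, the farthest was the one inside Ctif at 76.4 kb. No gene of the 10 had a summit between 76.4 and 184.0 kb, so the number of genes with a summit did not depend on the exact width in that range.

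Smad4, whose product joins both branches of the pathway, spans 73634790 to 73703791 on chromosome 18. Its nearest summit was 755.0 kb away, inside Myo5b, with a fold of 3.34. Among protein-coding genes 51.6% had a closer summit.

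The ligand gene Bmp4 is short, 46383525 to 46390669 on the minus strand of chromosome 14. Its summit at 46412467 (interval 46412296 to 46412498) lay 21.8 kb upstream of the start, and Bmp4 was the nearest annotated gene of any kind. The fold was 3.66 and the −log10 q 0.3 on 9 fragments (4.12 to 17.1), with a control background of 0.203. The next summit on that chromosome was 5416.4 kb from the gene.

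The BMP target gene Msx2 spans 53466881 to 53472780 on the minus strand of chromosome 13. Its summit at 53475884 (interval 53475830 to 53476095) lay 3104 bp upstream of the start and inside the long noncoding RNA gene Gm33763. The fold was 3.08 and the −log10 q 0.3 on 6 fragments (2.2 to 13.1), at the genome-wide background. The q of Bmp4, of Msx2 and of the summit inside Ctif was the same value, one shared by 213 summits of the list. Msx1, the paralogue on chromosome 5 (37820491 to 37824585, minus strand), had its nearest summit at 831.1 kb, 0.4 kb from Wfs1, and 54.0% of protein-coding genes had a closer one.

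**Figure D3:**
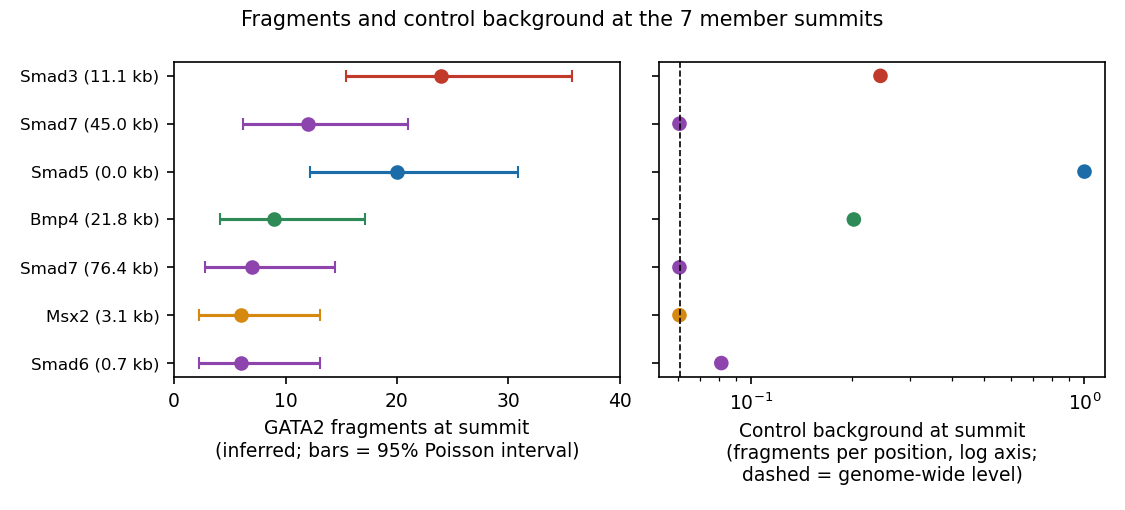
Left, inferred GATA2 fragments at each of the 7 summits with their 95% Poisson intervals; right, inferred control background at the same summits on a log axis, with the genome-wide level of 0.0608 dashed. Rows are in order of fold and give the distance to the gene. Smad3 (24) and Smad5 (20) hold the most fragments, and Smad5 has the highest background (1.0).

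Counting error limits the order of the 7 summits. The interval of Smad3 (15.4 to 35.7) lay above those of Msx2, Smad6 and the summit inside Ctif, and overlapped those of Smad5, Bmp4 and the summit on the Dym side of Smad7. At 4 of the 7 summits, those of Smad3, Smad5, Smad6 and Bmp4, the background was over 1% higher than across the genome, and 29.9% of all summits met that rule, which 1 control fragment at a summit is enough to meet. Of the 5 genes with a summit and a known strand, 4 had it upstream of the start (Smad3, Smad6, Bmp4 and Msx2), and 1 just downstream (Smad5). The distances ran from 682 bp to 21.8 kb upstream. Of those 4 only Smad3 had a summit with a q of at most 0.05. The share of all genes with a summit upstream was not computed, so this count is not read as a trait of the group.

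**Figure D4:**
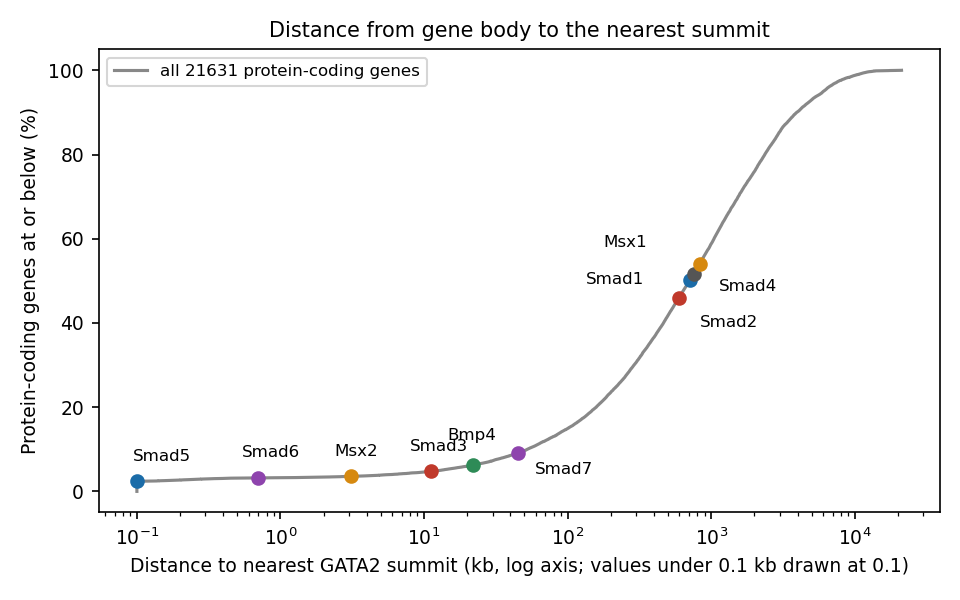
Cumulative share of protein-coding genes (vertical axis, %) by distance from the gene body to the nearest GATA2 summit (horizontal axis, kb, log scale), with the 10 genes as coloured points. The 6 genes with a summit sit at 0 to 45.0 kb, and Smad2, Smad1, Smad4 and Msx1 sit together at 592.5 to 831.1 kb, around the median of 707.3 kb.

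The other genes of the pathway were read from a list of ligand, receptor, antagonist, SMAD partner and target genes. Of 61 such genes 14 had a summit within 100 kb (14.9% of all protein-coding genes did) and 11 had one with a q of at most 0.05 (10.2% of all). Their strongest summits had a median fold of 4.73, against 4.15 over all genes with a summit. For 12 of the 14 genes another protein-coding gene was nearer to every summit, so the assignment rests on the 100 kb window. The 2 exceptions were Id3 and Inhbb. Among all protein-coding genes 3225 had a summit within 100 kb and 826 were the nearest to one. Not being the nearest is thus common, and 12 of 14 is not read as a trait of the pathway. The list was drawn up with results of these data known, and its counts were not tested.

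Among ligand genes 5 of 17 had a summit, beside 14.9% of all protein-coding genes. Gdf3, a ligand of pluripotent cells, had 5 summits 14.6 to 16.4 kb away, the strongest at 7.07-fold (−log10 q 6.05), and all 5 were nearer to the reporter gene Dppa3, where the control background was 0.852 to 3.0. Amh, the anti-Müllerian hormone gene, had one at 18.8 kb (5.57-fold, −log10 q 3.37), 142 bp from Oaz1. Nodal had one at 66.6 kb inside Pald1 and Inhbb, the activin beta B subunit gene, one at 79.8 kb, both with a fold of 4.6 and a −log10 q of 2.16. The fifth was Tgfb1, 28.2 kb from a summit inside Bckdha (3.44-fold, −log10 q 0.3).

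Among receptor genes 3 of 14 had a summit, beside 14.9% of all protein-coding genes, and none was the nearest gene. The type 2 receptor gene of anti-Müllerian hormone, Amhr2, had one at 39.1 kb with a fold of 8.06 and a −log10 q of 8.91, 421 bp from Sp1, and a weaker one inside Tarbp2 (4.15-fold). Eng, encoding the co-receptor endoglin, had one at 11.6 kb inside Fpgs (6.64-fold, −log10 q 7.02). Tgfbr1 had one at 59.5 kb, 92 bp from Alg2 (3.44-fold, −log10 q 0.3). The BMP receptor genes Bmpr1a, Bmpr1b and Bmpr2 had no summit within 100 kb.

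No antagonist gene had a summit, 0 of 10, among them Nog, Chrd and Fst. Of 11 SMAD partner genes 3 had one. Both counts stand beside 14.9% of all protein-coding genes, and with so few genes neither is read as a trait of its class. Zfyve9, which encodes the SMAD anchor SARA, had 3 summits at 52.6 to 62.0 kb, the strongest at 7.35-fold (−log10 q 7.02) beside Btf3l4. Tgif1, a SMAD corepressor gene, had 2 inside Dlgap1 at 71.4 and 96.3 kb, both at 3.79-fold. Foxh1, a partner of SMAD2 in nodal signalling, had one at 7.9 kb inside Cyhr1 (3.44-fold, −log10 q 0.3). Smad9, the remaining BMP-type SMAD gene, was listed with the SMAD partners and is not among the 10 genes. Its nearest summit was at 2091.8 kb.

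Among target genes 3 of 9 had a summit, beside 14.9% of all protein-coding genes. Id3, an inhibitor of E proteins, had 5 summits and was the nearest protein-coding gene to 4 of them. The other lay 83.9 kb from Id3 and 6.5 kb from Rpl11 (4.15-fold, −log10 q 1.75). Summits at 20 and 949 bp downstream of the Id3 start lay inside Id3, both 4.5-fold with a −log10 q of 1.75. The strongest of the 5 was also the strongest of the pathway, 11.27-fold with a −log10 q of 15.0. It lay 1.6 kb outside the gene on 29 fragments (19.4 to 41.6). Its interval overlaps that of Smad3 (15.4 to 35.7), although the fold of the Smad3 summit was lower, at 8.09, over a higher background. The homeobox gene Dlx3 had a summit at 13.6 kb for which Dlx4 was nearer (4.86-fold, −log10 q 3.37). Zglp1, a BMP-induced regulator of the oogenic programme, had one at 31.4 kb beside Icam4 (4.5-fold, −log10 q 1.75). Tgfb1, Tgfbr1 and Foxh1 tie for the last place under the rule for named genes, and all 3 were named after their values were seen.

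**Figure D5:**
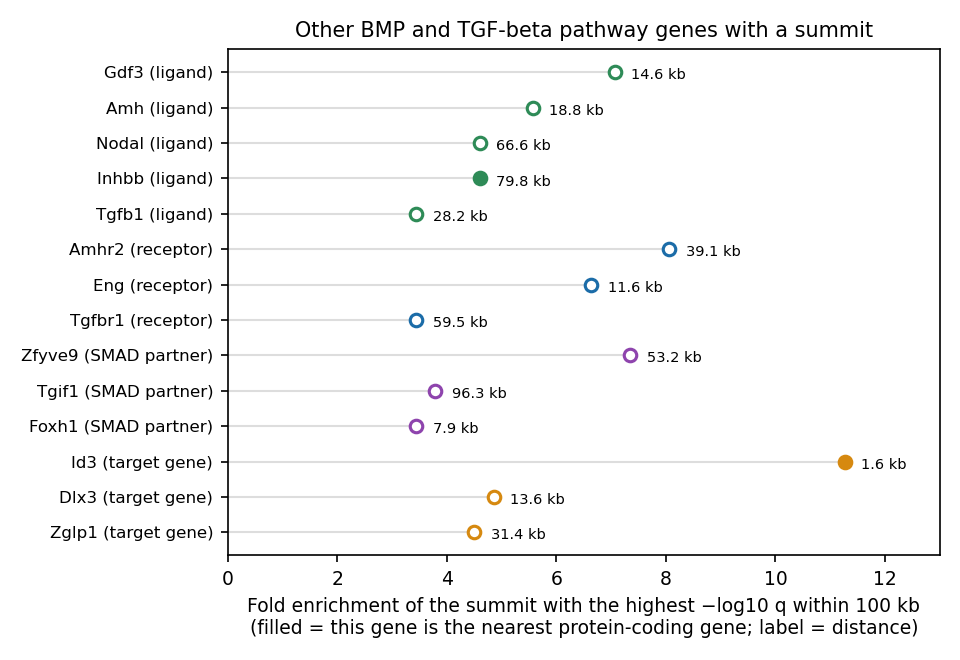
Fold enrichment of the summit with the highest −log10 q within 100 kb (horizontal axis) for the 14 other pathway genes with a summit, grouped by role. Labels give the distance to the gene, and filled circles mark the genes that are themselves the nearest protein-coding gene. Only Id3 and Inhbb are filled, and Id3 has the highest fold, 11.27.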

How the data were processed

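The list is in narrowPeak layout with no header. Per the submitters' processing notes, the tools were MACS2 2.2.6, Picard 2.23.0, Bowtie2 2.3.5.1, Trimmomatic 0.39, bedtools 2.29.2 and SAMtools, and the build was GRCm38 (mm10). Their parameters, the removal of duplicates and the control are not given in the sources. The deposited fold enrichment is a ratio at the summit. The deposited −log10 p and −log10 q describe single peaks. The deposited display score was not used beyond a check of the layout.

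The summit was taken as interval start plus offset plus 1. Gene bodies, promoters and strands came from RefSeq GRCm38.p6 (Smad2, Smad4 and Smad7 were not matched in the promoter table), and all 71 listed symbols matched (1 further gene of the planned list is not reported here). Fragments were inferred as in MACS2, from a Poisson tail at the pileup rounded down. A scale of 0.378 gave whole numbers at 995 of 995 summits (tolerance 0.05). Of 995 summits simulated from the fitted values with the same model, 995 were recovered, which checks the calculation and not the model. Under that model such a scale means a control library of another size. Analyses used Python 3.11.15, numpy 2.4.6, pandas 2.3.3, scipy 1.17.1 and matplotlib 3.10.9.

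Named were all 10 genes, the nearest gene of each of their summits, the 12 pathway genes with the highest −log10 q and the summits ranked next to the strongest (ties included above it). Pathway genes with no summit that are named were chosen after their values were seen. These genes and lists were chosen with earlier results of these data known. No test was made, and the planned comparison of SMAD proteins was not run. Alternatives changed the window, the peak threshold, the summits per interval, the assignment and the promoter width.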

Additional observations from a re-analysis of the deposited data

How the results depend on the processing

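No paired analysis was possible because the peak list holds no value of a single replicate, and for the same reason no replicate could be left out. With a window of 10 kb, 3 of the 10 genes had a summit (3 summits), and 2 of the 61 other pathway genes, against 4.6% of all protein-coding genes. With summits of q at most 0.05, 2 of the 10 genes had one (2 summits), against 10.2% of all. With a −log10 q of 5 or more, 1 of the 10 genes (1 summit) and 5 pathway genes had one, against 3.1% of all. With only summits at the genome-wide control background, a setting chosen after seeing the data, 2 of the 10 genes had one (3 summits), against 11.1% of all. When a gene had to be the nearest protein-coding gene, 2 of the 61 pathway genes had one, against 3.82% of all. In the last 150 bases of the promoter windows 0 of 9 held a GATA word (11.4% of all windows), against 1 in the whole windows (25.8%). With a window of 50 kb, 9 of the 61 other pathway genes had a summit, against 9.68% of all protein-coding genes. Windows of 50 and 200 kb, 1 summit per interval and any base of the interval kept the number of the 10 genes at 6. The share of all protein-coding genes was 9.68% at 50 kb and 23.5% at 200 kb, and 14.9% with either of the other settings. At 200 kb 18 of the 61 other pathway genes had a summit, against the same 23.5%. Apart from the pathway count at 50 kb, these settings moved the remaining counts by no more than 1.5 times. Fewer summits or shorter distances lower these counts by construction. At 6 to 24 fragments per summit, counting error alone spans more than a 2-fold range.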

Other observations

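The summit nearest to Smad2 lay 592.5 kb from it but 3.2 kb from Skor2, which encodes a corepressor of the SKI family (chromosome 18, 76903768 to 76904406, summit at 76904281). It had a fold of 4.5, a −log10 q of 1.75 and 10 fragments (4.8 to 18.4) at the genome-wide control background of 0.0608. Skor2 was not in the list of pathway genes and was chosen after its value was seen. The listed genes of the same family, Ski and Skil, had their nearest summits at 379.0 and 492.7 kb.

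Beyond the 100 kb window, the nearest summit of Smad5 was 437.5 kb away and 13.4 kb from the neurogenic gene Neurog1 (5.57-fold, −log10 q 3.37, 13 fragments). That of Msx2 was 715.9 kb away, with Auh as the nearest gene at 84.1 kb. This summit (9.49-fold, −log10 q 12.95, 24 fragments) was stronger in fold than any of the 7 near the SMAD genes, Bmp4 and Msx2.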
